A study of Homo sapiens with 6 samples.

Results

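The 8 subunits of BLOC-1, the biogenesis of lysosome-related organelles complex 1, were examined in mRNA-seq data from Kasumi-1 cells. They were picked out of the 29810 genes of the deposited table by symbol (BLOC1S1 to BLOC1S6, DTNBP1 and SNAPIN), each through its Ensembl identifier, and all 8 had a row. The complex was selected on the measured I3 and control levels of BLOC1S4, chosen by its clearly lower values after I3, so the I3 contrast of the subunits is given as a description, with no p-value for any of them. How many passed a threshold is given for the main fit beside the share of all genes, and for some alternatives. These counts support nothing. Kasumi-1 is a line of human acute myeloid leukaemia (AML) cells with the t (8; 21) translocation. Of the 6 libraries, 3 came from control cells, which received the solvent DMSO, and 3 from cells incubated with 0.25 μM of the HDAC inhibitor I3. The labels give 48 h for both groups. All libraries stand for this single cell line, and nothing in the labels says whether the replicates were separate cultures.

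BLOC-1 is a rod of small helical proteins on early endosomes. It helps to load cargo into carriers that leave for lysosome-related organelles, such as melanosomes and the dense granules of platelets. Inherited loss of several of its subunits, among them DTNBP1, BLOC1S3, BLOC1S5 and BLOC1S6, causes forms of Hermansky-Pudlak syndrome, with pale skin and bleeding. BLOC1S1, BLOC1S2 and SNAPIN are also part of BORC, a complex on the lysosome membrane that couples lysosomes to kinesin motors.

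In control cells, BLOC1S4 had the highest FPKM of the 8 mRNAs. It was clearly lower in cells incubated with I3, at about 60% of its control level. None of the other 7 subunits separated the groups. By its mean, BLOC1S4 moved from place 1 to place 3 among the subunits, behind SNAPIN and BLOC1S2, though its I3 values overlapped those of BLOC1S2. Levels are in FPKM, the fragments counted for a gene per kilobase of its exons and scaled to the depth of the library. They can be set side by side between genes only within limits, given below, of exon length and shared exons.

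BLOC1S4, the subunit whose mouse counterpart is mutated in cappuccino, is a gene of 1 exon on chromosome 4 of GRCh38 (6716055 to 6717671, + strand), and no exon of another gene overlaps it. It had 12.2, 11.6 and 11.8 FPKM in control 1, 2 and 3. After I3 it had 7.74, 6.53 and 7.10 FPKM in I3 1, 2 and 3. Every I3 library lay well below every control library, and the gap between the groups was wider than the range within either. The means were 11.9 ± 0.304 and 7.13 ± 0.603 FPKM (SD, n = 3 each), a log2 fold change of -0.70 (standard error 0.0745) on the scale log2(FPKM + 0.5). The level thus decreased by 40.0%. The reads behind it, rebuilt from FPKM and exon length, numbered 349, 335 and 333 for control 1, 2 and 3 and 223, 188 and 209 for I3 1, 2 and 3. The ratio of reads, I3 over control, was 0.600 with an exact 95% interval of 0.542 to 0.664, which covers counting error only. In bulk RNA, fewer cells with the transcript and less transcript per cell cannot be told apart.

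**Figure D1:**
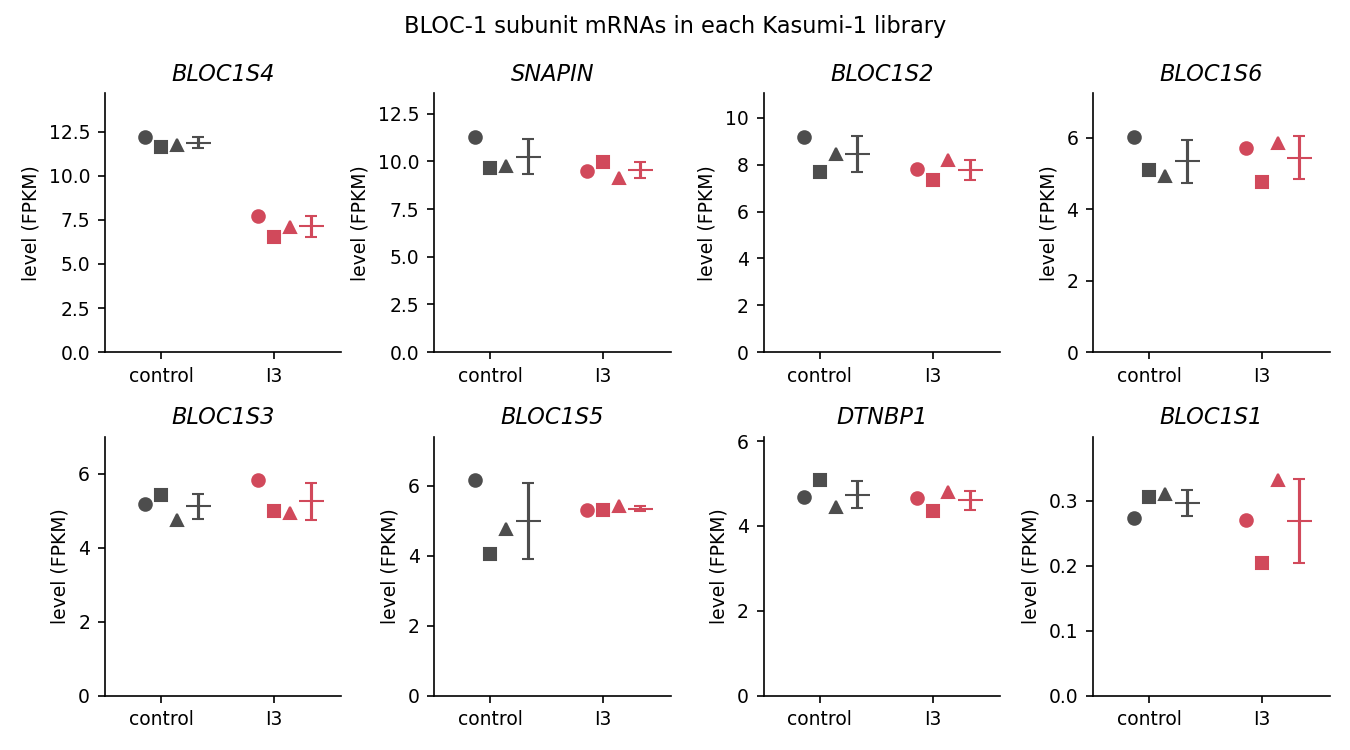
Level in FPKM (vertical axes, each from 0) of the 8 BLOC-1 subunits in the control (grey) and I3 (red) libraries, with replicates 1, 2 and 3 as circle, square and triangle and the mean ± SD (n = 3) beside them. BLOC1S4 is the only panel in which the groups do not overlap, with 11.6 to 12.2 FPKM in control and 6.53 to 7.74 FPKM in I3 libraries.

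SNAPIN, first known as a partner of the synaptic SNARE SNAP25, was second in control cells. It lies on chromosome 1 (153658654 to 153661830). Its levels were 11.3, 9.64 and 9.77 FPKM in the controls and 9.49, 9.97 and 9.15 FPKM after I3. The groups overlapped, and control 1 was the highest of the 6 libraries. The log2 fold change was -0.095 (standard error 0.0787). In all, 43 bases of its exons overlap ILF2, which lies on the opposite strand and had 131 to 140 FPKM.

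BLOC1S2, which binds to BLOC1S1 in both BLOC-1 and BORC, lies on chromosome 10 (100273280 to 100286712). It had 9.20, 7.67 and 8.47 FPKM in the controls and 7.80, 7.35 and 8.18 FPKM after I3. The groups overlapped through control 2 and the log2 fold change was -0.11 (standard error 0.0826). Of the 7 other subunits it came nearest to a lower level after I3, in that its groups came apart once the GC trend of the libraries, described below, was removed.

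BLOC1S6 (pallidin), which holds a syntaxin of endosomes, lies on chromosome 15 (45587123 to 45615999). Its 6.03, 5.08 and 4.92 FPKM in control cells stood against 5.71, 4.74 and 5.86 FPKM after I3. BLOC1S3, on chromosome 19 (45178745 to 45181801), had 5.18, 5.44 and 4.76 FPKM in control cells and 5.83, 4.996 and 4.95 FPKM after I3. The groups overlapped in both genes, and the log2 fold changes were 0.023 (standard error 0.108) and 0.032 (standard error 0.0887).

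BLOC1S5, whose mouse counterpart is mutated in muted, lies on chromosome 6 (8013567 to 8064414). It varied most among the control libraries, with 6.17, 4.05 and 4.77 FPKM, whereas the I3 libraries were almost alike at 5.30, 5.31 and 5.44 FPKM. The I3 values all lay inside the range of the controls. The log2 fold change was 0.11 (standard error 0.134). It was -0.020 without control 2 and 0.26 without control 1, so that the controls decide its sign.

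DTNBP1 (dysbindin), named as a binding partner of dystrobrevins, also lies on chromosome 6 (15522801 to 15663058). It had 4.67, 5.08 and 4.46 FPKM in control cells and 4.65, 4.36 and 4.81 FPKM after I3. The groups overlapped almost completely, with a log2 fold change of -0.035 (standard error 0.0778). The spread of DTNBP1 within groups was small, 0.0763 on the log2 scale, and 81.3% of the 2755 genes within 1.5 times its level had a larger one.

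BLOC1S1 (also known as GCN5L1), named for its likeness to an acetyltransferase and studied for the acetylation of mitochondrial proteins, stood far below the rest. It lies on chromosome 12 (55716037 to 55720087). Its levels were 0.274, 0.305 and 0.311 FPKM in control cells and 0.271, 0.204 and 0.332 FPKM after I3. Only 8, 9 and 9 reads lay behind the control values, and 8, 6 and 10 reads behind the I3 values. It was under the minimum mean of 0.5 FPKM and was not among the tested genes, so its log2 fold change of -0.054 (standard error 0.108) comes from the fit without a minimum. The ratio of reads was 0.909 with an interval of 0.499 to 1.65, and a difference within that range was not detectable at this depth.

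The low value of BLOC1S1 has to be read beside BLOC1S1-RDH5 (ENSG00000258311), a readthrough gene that runs from BLOC1S1 into its neighbour RDH5. The readthrough gene covers 494 bases, or 29.8%, of the exons of BLOC1S1 on the same strand. The readthrough gene takes in all or part of each of the 4 exon blocks. How reads in shared exons were counted was not given in the sources used here, so they may be missing from both genes. BLOC1S1-RDH5 itself had 18, 18 and 17 reads in control cells and 10, 5 and 11 reads after I3. All I3 libraries lay below all controls. The ratio of reads was 0.483 with an interval of 0.290 to 0.786, which covers counting error only. It was also under the minimum and was not tested. Groups did not overlap in the lower direction for 4.64% of the tested genes, all above that minimum, so this share is no matched background for it.

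**Figure D2:**
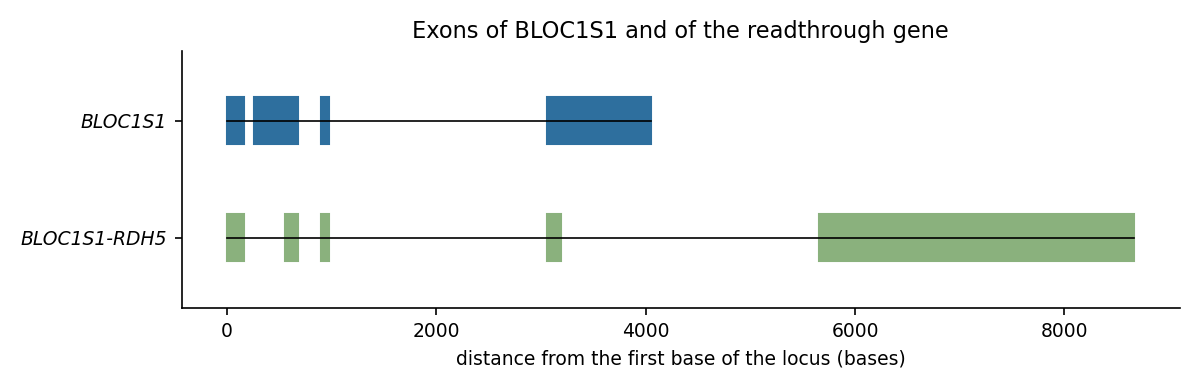
Exon blocks of BLOC1S1 (blue) and of the readthrough gene BLOC1S1-RDH5 (green), drawn to scale as the distance in bases from the first base of the locus, with introns as lines. Each of the 4 blocks of BLOC1S1 shares bases with the readthrough gene, 494 bases in all.

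Parts of the exons of other subunits were shared too, to a lesser extent. For BLOC1S5 this was 14.3% of its exon bases, with the readthrough genes BLOC1S5-TXNDC5 and EEF1E1-BLOC1S5, for BLOC1S3 4.54% and for BLOC1S6 2.57%, all on the same strand. None of these overlapping genes has a row in the table. BLOC1S2, BLOC1S4 and DTNBP1 shared no exon base with another gene.

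Promoters of 7 of the 8 subunits, all but BLOC1S4, were matched in RefSeq (GRCh38.p14, 250 bases before to 50 after each start). Their 16 windows, some of which overlap because a gene has several starts, held 14 to 32 CG dinucleotides, and 15 of the 16 were above the median of 14 over 35116 promoters. The motif GGGCGG (the GC box, both strands) occurred in at least 1 window of all 7 subunits and in 14 of the 16 windows, beside 45.0% of all promoters. CCAAT occurred in 6 windows, beside 34.6% of all promoters, and TATAAA in 0, beside 11.5%. CACGTG is the E-box at the core of the element that TFEB and related regulators of lysosomal genes bind. It occurred in 2 of the 16 windows, 1 of BLOC1S1 and 1 of BLOC1S3, beside 7.26% of all promoters. These matches are a description of the letters. The 2 promoters with an E-box are shown together with that of SNAPIN, which has none, from 250 bases before to 30 bases after the start, with E-boxes, GC boxes and CCAAT boxes in capitals. The BLOC1S1 promoter is shown also because the start of the readthrough gene lies only 12 bases from it, so that both genes share these letters.
BLOC1S1, chr12:55715796-55716075, + strand: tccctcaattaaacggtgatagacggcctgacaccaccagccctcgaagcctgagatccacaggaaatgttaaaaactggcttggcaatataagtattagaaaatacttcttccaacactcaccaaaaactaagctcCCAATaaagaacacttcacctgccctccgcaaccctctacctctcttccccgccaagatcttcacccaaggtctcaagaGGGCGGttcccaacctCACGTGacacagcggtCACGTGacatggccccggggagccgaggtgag
BLOC1S3, chr19:45178534-45178813, + strand: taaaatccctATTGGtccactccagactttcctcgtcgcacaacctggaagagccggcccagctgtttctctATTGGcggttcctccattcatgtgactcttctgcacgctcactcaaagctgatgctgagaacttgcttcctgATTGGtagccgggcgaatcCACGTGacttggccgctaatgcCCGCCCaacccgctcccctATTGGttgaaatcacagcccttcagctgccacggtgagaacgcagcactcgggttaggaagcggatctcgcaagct
SNAPIN, chr1:153658404-153658683, + strand: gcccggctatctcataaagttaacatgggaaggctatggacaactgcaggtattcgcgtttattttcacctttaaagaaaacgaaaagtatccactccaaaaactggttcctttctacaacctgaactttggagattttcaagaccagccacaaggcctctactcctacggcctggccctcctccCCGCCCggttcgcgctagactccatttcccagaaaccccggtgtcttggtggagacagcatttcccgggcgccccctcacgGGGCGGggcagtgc

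The order of the subunits in control cells was BLOC1S4, SNAPIN, BLOC1S2, BLOC1S6, BLOC1S3, BLOC1S5, DTNBP1 and BLOC1S1. The 3 control values of BLOC1S4 were all above those of SNAPIN, those of SNAPIN all above those of BLOC1S2, and those of BLOC1S2 all above those of BLOC1S6. BLOC1S6, BLOC1S3, BLOC1S5 and DTNBP1 could not be ordered, since the control values of each neighbouring pair overlapped between 4.05 and 6.17 FPKM. DTNBP1 was above BLOC1S1 in every control library. The FPKM values divide by the exons of all transcripts of a gene together, so a gene of which Kasumi-1 cells use a short form gets a low value. This length was 1617 bases for BLOC1S4 and 6812 bases for BLOC1S6.

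After I3, SNAPIN came first and BLOC1S2 second. The values of BLOC1S4 and BLOC1S2 overlapped there, with 6.53 to 7.74 FPKM against 7.35 to 8.18 FPKM, so the second and the third place are not told apart. BLOC1S4 took 22.2, 23.8 and 23.9% of the summed FPKM of the 8 subunits in control 1, 2 and 3, and 16.5, 15.03 and 15.5% in I3 1, 2 and 3. The sum of the other 7 subunits was 39.2 ± 3.15 FPKM in control and 38.2 ± 1.14 FPKM in I3 libraries (SD, n = 3 each), a difference smaller than the spread between libraries.

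Within a library, BLOC1S4 could be set against each partner, which removes what is common to all genes of that library. Its ratio to SNAPIN was 1.08, 1.21 and 1.204 in control 1, 2 and 3, against 0.816, 0.655 and 0.777 in I3 1, 2 and 3. Its ratio to BLOC1S2 was 1.33, 1.52 and 1.39 in control libraries, against 0.992, 0.889 and 0.868 in I3 libraries. Thus BLOC1S4 exceeded both in each control library and neither in any I3 library. The ratio to DTNBP1 ran from 2.29 to 2.64 in control and from 1.48 to 1.66 in I3 libraries. For all 7 partners the I3 ratios lay below the control ratios, which follows from the lower BLOC1S4 that the choice of the complex rested on.

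**Figure D3:**
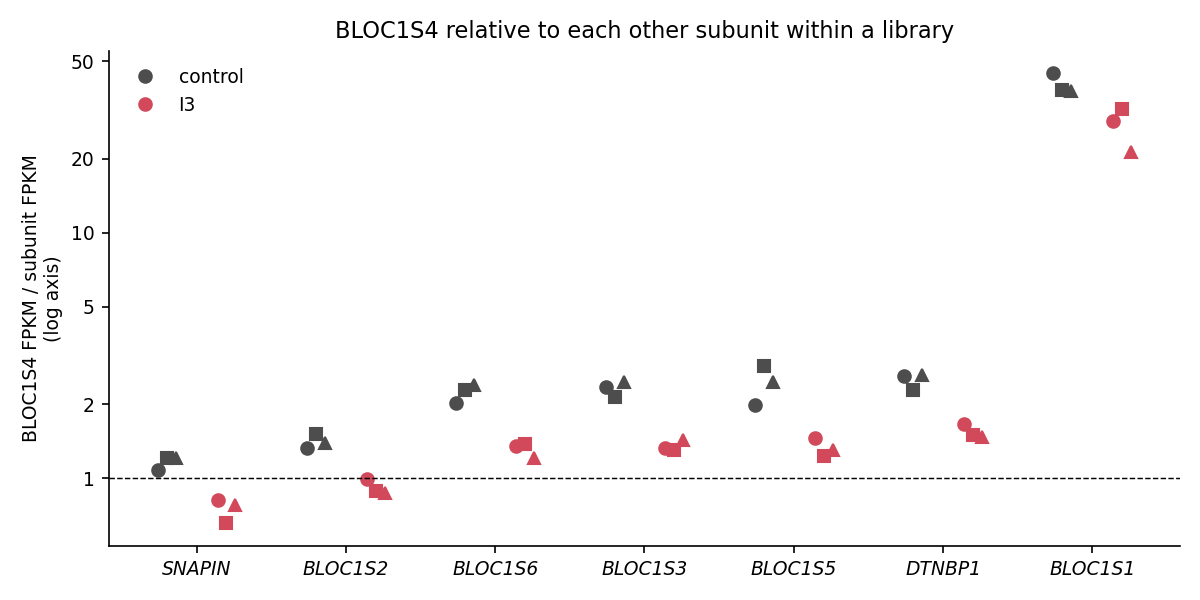
FPKM of BLOC1S4 divided by the FPKM of each other subunit in the same library (log axis), for control (grey) and I3 (red) libraries with replicates 1, 2 and 3 as circle, square and triangle, and a dashed line at 1. For SNAPIN the ratio is 1.08 to 1.21 in control and 0.655 to 0.816 in I3 libraries.

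Differential expression across all genes was tested with limma on log2(FPKM + 0.5), for the 12960 genes that reached a mean of 0.5 FPKM. A gene was called at a Benjamini-Hochberg adjusted p of 0.05 and an absolute log2 fold change of 0.58. Of the 8 subunits, 7 passed the minimum, and 0 of the 7 were called, where limma called 0% of all genes. The paper used another method, DESeq, at the same thresholds and reports genes both lower and higher after I3. The 0 calls here therefore do not mean that no gene changed. At an unadjusted p under 0.05 without a fold threshold, 1 of the 7 was counted, beside 4.93% of all genes, and it was BLOC1S4, the gene on which the choice rested. limma's voom on the rebuilt reads called 0 subunits and counted BLOC1S4 alone at the unadjusted p. The GC correction described below counted 2 subunits there, BLOC1S2 and BLOC1S4, and the fit without control 1 counted BLOC1S4 and BLOC1S5. Control and I3 values stood apart for 1 of the 7 subunits, in the lower direction, beside 4.64% of all tested genes in that direction and 9.7% in either. An absolute log2 fold change of 0.58 was reached by 1 of the 7, beside 2.77% of all genes, and 4 of the 7 had a log2 fold change below 0, beside 45.8%. Nothing is read from these counts, since BLOC1S4 was chosen on them and the alternatives use the same libraries again. The median log2 fold change was -0.0059 for the 6 tested subunits other than BLOC1S4 and 0.011 for all tested genes.

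The libraries differed in how levels followed the GC content of transcripts, and this touches the subunits unevenly. Over genes, the rank correlation of GC content with a library's departure from the mean of each gene was negative in control 1, I3 1 and I3 3 and positive in control 2, control 3 and I3 2, from -0.446 to 0.446. BLOC1S2, BLOC1S5 and BLOC1S6 have the lowest GC content of the subunits, 41.3%, 41.8% and 42.6%. Among the controls these 3 were highest in control 1, and so were BLOC1S4 (54.1%) and SNAPIN (53.3%). After removal of this trend, the spread of BLOC1S2 within groups went from 0.101 to 0.0466 on the log2 scale, that of BLOC1S6 from 0.148 to 0.0906 and that of BLOC1S5 from 0.197 to 0.142. The same step widened the spread of the other 4 tested subunits, for BLOC1S4 from 0.0845 to 0.108, for BLOC1S3 from 0.106 to 0.116, for DTNBP1 from 0.0763 to 0.0879 and for SNAPIN from 0.0951 to 0.105. The values of BLOC1S2 were then 8.64, 8.17 and 8.95 FPKM in control and 7.55, 7.53 and 7.75 FPKM in I3 libraries. These groups did not overlap, as for 5.78% of all genes after the same step, and the log2 fold change was -0.16. For BLOC1S4 it was -0.70 after the step.

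BLOC1S4 was also compared with the genes around it on chromosome 4. Of 10 genes in the table within 100 kb, 6 passed the minimum of 0.5 FPKM. ENSG00000170846 (6663396 to 6676755), a protein-coding gene listed by its identifier that ends before BLOC1S4, had 12.6, 12.7 and 12.9 FPKM in control cells and 10.8, 9.52 and 7.49 FPKM after I3. All I3 libraries were below all controls there too, with I3 3 the lowest. The log2 fold change was -0.45 (standard error 0.121, limma adjusted p = 0.768, unadjusted p = 0.00675), and it was -0.32 without I3 3.

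The tested genes nearest to BLOC1S4 on either side did not separate the groups. MRFAP1L1 (6707701 to 6709880), just before it on the other strand, had 30.3, 25.3 and 25.9 FPKM in control cells and 27.6, 27.2 and 27.3 FPKM after I3 (log2 fold change 0.015, limma adjusted p = 0.998). KIAA0232, 63.7 kb after it, had 9.48 ± 0.632 and 10.02 ± 0.324 FPKM (SD, n = 3 each). S100P, a small calcium-binding protein, rests on few reads, 9, 14 and 22 in control cells and 8, 11 and 9 after I3. Its groups overlapped, with a log2 fold change of -0.33 (standard error 0.231, limma adjusted p = 0.998). MRFAP1 and MAN2B2 had log2 fold changes of -0.044 and -0.020.

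**Figure D4:**
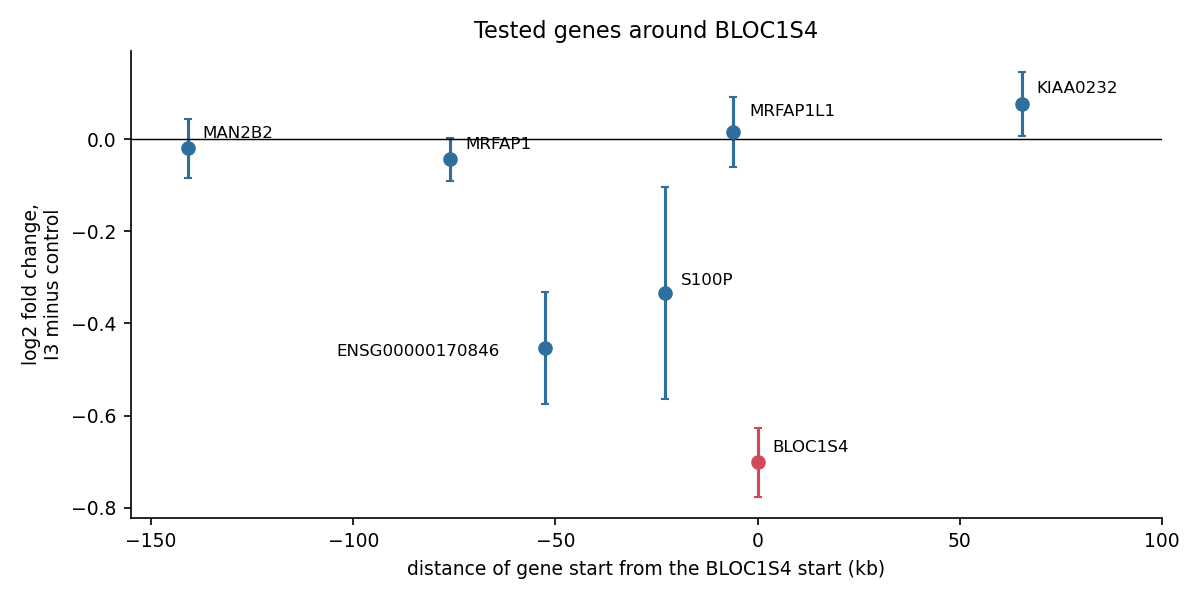
Log2 fold change between I3 and control libraries with its standard error for the 6 tested genes around BLOC1S4 (blue) and for BLOC1S4 (red), by the distance in kb of the gene start from that of BLOC1S4. BLOC1S4 (-0.70) and ENSG00000170846 (-0.45) are the plotted genes whose groups do not overlap, and S100P (-0.33) and MRFAP1L1 (0.015) lie between them.

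The genes whose pattern over the 6 libraries was most like that of BLOC1S4, among the 6641 others with a mean of at least 5 FPKM, were TTC19, PABPC4, KATNA1, MBD2 and NUDT19. Pearson's r of their log2 levels with those of BLOC1S4 was 0.985, 0.983, 0.981, 0.970 and 0.964. No p is given, since 6 libraries in 2 groups fix much of such a likeness and the genes were picked for it. TTC19, a mitochondrial protein of respiratory complex III assembly, had 8.44, 8.29 and 8.30 FPKM in control cells and 7.17, 6.73 and 6.57 FPKM after I3. NUDT19, a hydrolase of coenzyme A, differed most of the 5, with 17.3 ± 0.387 in control and 13.0 ± 1.503 FPKM in I3 libraries (SD, n = 3 each). PABPC4, KATNA1 and MBD2 had log2 fold changes of -0.17, -0.18 and -0.22. Among the subunits, r with BLOC1S4 was highest for BLOC1S2, at 0.624 (place 538 of the 6641 genes), and lowest for BLOC1S5, at -0.258.

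The other complexes that act beside BLOC-1 were read from the same fit, with lists of 49 genes of which 45 passed the minimum. limma called 0 of the 45, and voom on rebuilt reads called 0 as well. At an unadjusted p under 0.05, 2 of the 45 were lower after I3, beside 2.85% of all genes, and 0 were higher, beside 2.08%. The groups did not overlap for 1 gene in the lower and 4 genes in the higher direction, beside 4.64% and 5.06% of all genes. The median log2 fold change was -0.0052, and 0 of the 45 genes reached 0.58 in either direction. SNAP25 has no row in the table, and AP3B2, KIF13A and DTNA were under the minimum.

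BORC holds 5 subunits of its own beside the 3 it shares with BLOC-1. Among these, BORCS6 had 1.43, 1.48 and 1.69 FPKM in control cells and 1.16, 1.18 and 1.49 FPKM after I3, and KXD1 had 5.53, 6.01 and 5.88 FPKM and then 6.21, 6.51 and 6.00 FPKM. Both overlapped between the groups. Their log2 fold changes were -0.20 and 0.095, and the range over the 5 genes was -0.20 to 0.24.

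RAB32, a small GTPase of lysosome-related organelles that is loaded by BLOC-3, had 23.5, 20.45 and 22.3 FPKM in control cells and 20.9, 13.5 and 15.7 FPKM after I3. I3 1 lay within the control range, and the log2 fold change was -0.41 (standard error 0.148, limma adjusted p = 0.955, unadjusted p = 0.0258). It ranged from -0.58 without I3 1 to -0.28 without I3 2, and the unadjusted p was no longer under 0.05 without I3 2, I3 3, control 1 or control 3. RAB7A, a GTPase of late endosomes, had 106 to 108 FPKM in control and 108 to 113 FPKM in I3 libraries.

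The adaptor AP-3 sorts cargo at endosomes together with BLOC-1. Its large subunit AP3D1 had 25.6 ± 2.34 FPKM in control and 23.8 ± 1.29 FPKM in I3 libraries (SD, n = 3 each), and AP3M1 had 22.1 ± 0.247 and 22.8 ± 1.22 FPKM. None of the 6 tested AP-3 genes separated the groups. BLOC-2 and BLOC-3 act after BLOC-1 and are also affected in Hermansky-Pudlak syndrome. In BLOC-2, HPS5 had a log2 fold change of -0.081 and HPS6 of -0.093, the latter set by I3 3 with 8.51 FPKM against 13.4 and 13.2 FPKM in I3 1 and 2, and 0.11 without I3 3. In BLOC-3, HPS1 had 28.1 ± 1.32 and 25.9 ± 1.07 FPKM, and HPS4 had 6.27, 6.41 and 6.27 FPKM against 6.56, 6.61 and 6.55 FPKM. The HPS4 groups did not overlap, but the log2 fold change was only 0.053.

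The tethers HOPS and CORVET, which join endosomes and lysosomes, had log2 fold changes of -0.025 to 0.11 over 8 genes. VPS41 had 8.35 ± 0.705 and 9.06 ± 0.658 FPKM, and VPS33A had 1.64 ± 0.0332 and 1.80 ± 0.0313 FPKM (SD, n = 3 each). Of 8 lysosomal membrane proteins, LAMP1 had 45.6, 53.4 and 56.2 FPKM in control cells and 47.0, 45.0 and 44.7 FPKM after I3, and TMEM192 had 3.16 ± 0.247 and 3.47 ± 0.0857 FPKM. Both overlapped between the groups. The genes with higher levels in every I3 library were HPS4, VPS33A, RAB7A and SCARB2, a lysosomal receptor with 2.16 to 2.41 FPKM in control and 2.41 to 2.92 FPKM in I3 libraries. RAB7A and SCARB2 are named because they were counted, after their values were seen.

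**Figure D5:**
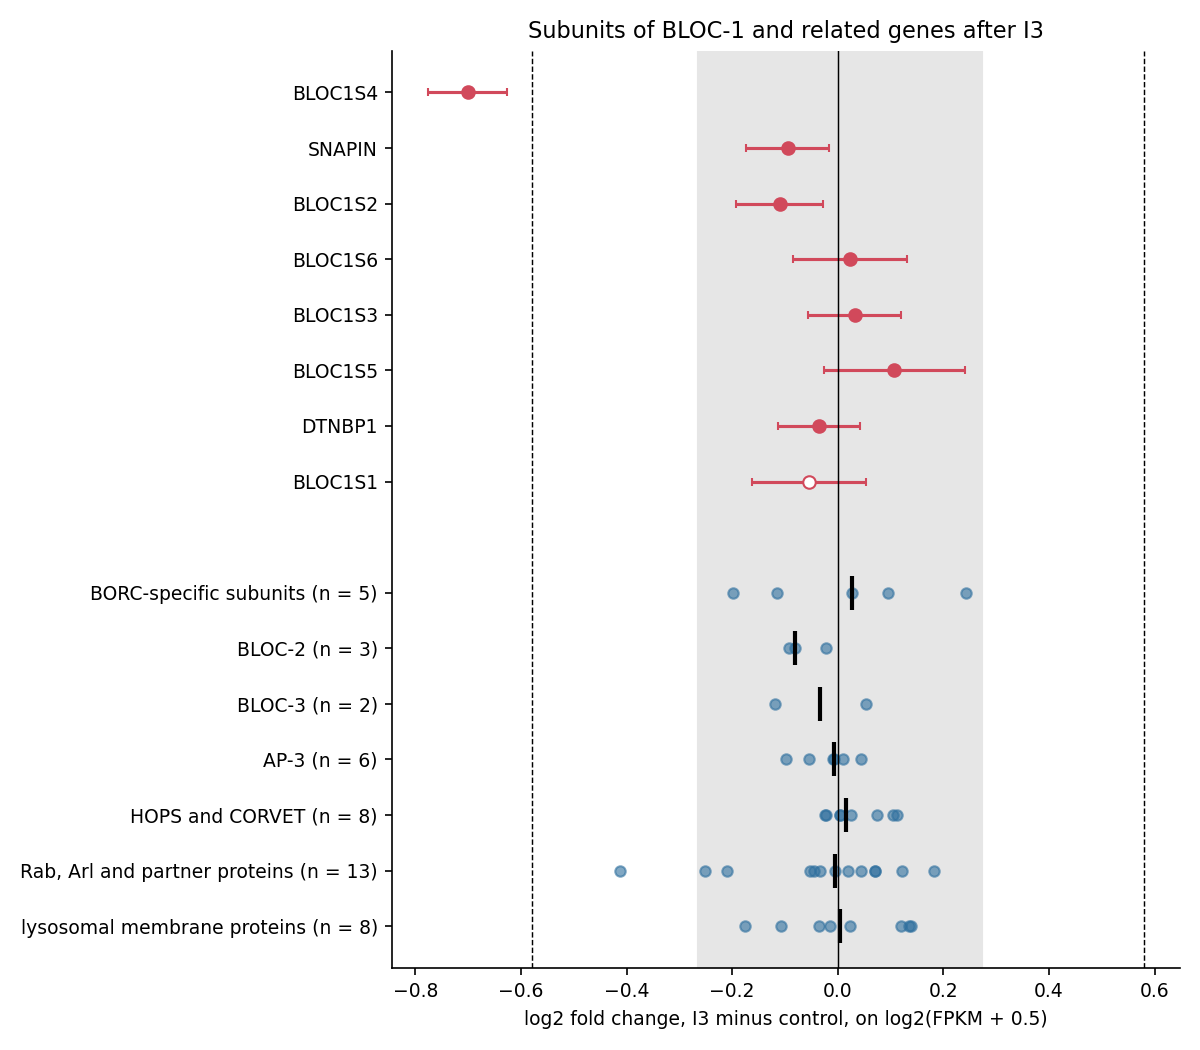
Log2 fold change between I3 and control libraries on log2(FPKM + 0.5) for the 8 subunits of BLOC-1 (red, with standard error, open for the untested BLOC1S1) and for the 45 tested genes of the other lists (blue points, black bar at the median). The grey band holds the middle of all 12960 genes, from the 5th to the 95th percentile (-0.26 to 0.27), and dashed lines mark 0.58 in either direction, which BLOC1S4 alone of these genes exceeds.

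As for the libraries as a whole, the rebuilt depth was 17500196 to 17798581 reads in control and 17794699 to 18193263 reads in I3 libraries. All 8 markers of the myeloblast type were listed, with MPO from 7740 to 8612 FPKM, KIT from 198 to 225 FPKM and RUNX1T1, a partner in the fusion of t (8; 21), from 14.1 to 16.97 FPKM, and CD38 alone had a mean under 1 FPKM. Of 9 markers of other cells, 4 had no row and 4 had a mean under 1 FPKM. The exception was the epithelial marker EPCAM, with 28.7 to 31.1 FPKM in control and 28.2 to 31.6 FPKM in I3 libraries.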

How the data were processed

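Total RNA of 3 control and 3 I3-treated Kasumi-1 samples was sequenced after stranded library preparation of polyadenylated RNA. The authors deposited FPKM values, 1 column per library. Per the labels, the processing notes name Trimmomatic, HISAT2, Cufflinks and HTSeq and the build hg38, without versions. Annotation and counting mode were not given in the sources used here. As for names, that of the table gives the compound as I13, whereas labels and paper give I3, and a figure legend gives a longer incubation than the 48 h of the labels.

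Identifiers were matched to GENCODE release 29 (29703 of 29810). Rebuilt reads were whole in all 6 libraries for 95.3% of 26519 genes at a tolerance of 0.1 read. Reads set the precision of low genes, and intervals are exact binomial ones (scipy 1.17.1). No 2 libraries of a group were copies, with a chi-square of reads per degree of freedom of at least 4.95. Where replicates are not separate cultures, p-values measure technical spread only.

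limma 3.58.1 in R 4.3.3 (lmFit, eBayes with trend, two-sided) was applied to log2(FPKM + 0.5), with all 6 libraries, no covariate and Benjamini-Hochberg adjustment over 12960 genes. GC content was removed by lowess (span 0.3, statsmodels 0.14.6) on the median of each gene's transcripts. The procedure was tested on simulated data. Members, gene lists and alternatives were chosen with earlier results of these data known. Named are all subunits, genes that overlap them, genes within 100 kb of BLOC1S4, the 5 genes most like it, and in each other list the called genes or else the 2 with the smallest unadjusted p. Of the genes so named, 1 is not reported here. Alternatives were other pseudocounts, minimums and scalings, the GC correction, voom on rebuilt reads with a mean of at least 10, the replicate block and each library left out. Amino acid sequences were not used here.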

Additional observations from a re-analysis of the deposited data

How the results depend on the processing

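The log2 fold change of BLOC1S4 ran from -0.74 to -0.67 over 10 alternatives with all libraries, and from -0.76 (without I3 1) to -0.64 (without I3 2) with single libraries left out. Among the 10, the replicate block and the other minimums of FPKM cannot alter the log2 fold change of a gene that they keep. They gave the main value of -0.70 again and add nothing to this range. BLOC1S2 and SNAPIN kept their sign in all 16 alternatives each, though the replicate block and the minimums could not turn it. Without control 1, however, the log2 fold change of BLOC1S2 went from -0.11 to -0.050 and that of SNAPIN from -0.095 to -0.025, and without control 2 they were -0.17 and -0.13. The sign turned for BLOC1S6 in 5, for BLOC1S3 in 2 and for BLOC1S5 and DTNBP1 in 1 alternative each, all at values near 0. BLOC1S1, under the minimum, could be fitted only without a minimum and after rescaling to TPM. The place of BLOC1S4, 1 in control and 3 in I3 libraries, was the same with TPM, with median-of-ratios scaling and without any single library. This could not have come out otherwise. These scalings multiply all genes of a library by the same factor, and BLOC1S4 already had that place in each library on its own.

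With all libraries, 0 genes were called under any alternative. Leaving out single libraries gave 0 to 1 genes higher, with 1 without control 1, and 0 to 2 genes lower, with 2 without I3 1 and 1 without I3 2, none of them a subunit or a gene of the other lists. At the unadjusted p, 269 genes higher and 370 lower of 12960 became 79 and 223 of 6642 with a minimum of 5 FPKM. The higher count fell more than the lower one, and the cause was not tested. TPM gave 419 higher of 16857 genes tested, and no minimum gave 545 higher of 26609. Without single libraries, 195 to 941 were higher and 242 to 476 lower. The 941 arose without control 1, the 245 lower without I3 3 and the 242 lower without control 2, and the cause was not tested. Of the 45 genes of the other lists, 0 were higher and 2 lower. These became 1 higher with the GC correction, with voom and with the replicate block, and 0 to 3 higher and 1 to 3 lower without single libraries, with 3 higher without control 1, 1 higher without I3 2, and 1 lower without I3 2, I3 3, control 2 or control 3.

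The deviations of libraries with the same replicate number had correlations of 0.0634, 0.151 and -0.0239. Those of the other pairs ran from -0.172 to 0.101. Deviations of the 3 libraries of a group sum to 0, so these values cannot decide whether the replicates were paired. With the replicate as a block, limma called 0 genes, and 363 genes were higher and 493 lower at the unadjusted p.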
